A study of Mus musculus with 8 samples.

Results

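miR-128 is a brain-enriched microRNA made from a pair of hairpin genes, and it was described here through its 3 mature products in the mouse: mmu-miR-128-3p, which both hairpins yield in identical form, and the locus-specific arms mmu-miR-128-1-5p and mmu-miR-128-2-5p (written below without the species prefix). These 3 names were taken, by name, out of the 1915 mature miRNA names listed for each library. Small RNA from the prefrontal cortex of 12-week-old C57BL/6 mice was sequenced in 4 libraries labelled Fkbp5 Knockout (replicates 1, 2, 4 and 5) and 4 labelled wild type (replicates 1, 2, 3 and 4). The labels give neither the allele by which Fkbp5 was removed, nor the sex, nor whether each library came from a separate animal, so a p-value here covers no more than the spread among these libraries, which may be technical. Fkbp5 encodes a co-chaperone of the glucocorticoid receptor. Its messenger RNA is not read in a small RNA library, so the genotype labels were not checked against it.

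A miRNA hairpin is cut to a short duplex, and 1 strand of it, the guide, is kept in an Argonaute protein while the other strand is mostly degraded. The guide finds messenger RNAs chiefly through its seed, bases 2 to 8 from its 5′ end. The kept strand tends to be the one that begins with U or A and whose 5′ end is the less firmly paired. miR-128 is enriched in neurons, where the 3p strand is the guide, and its loss in neurons of mice is known to cause hyperactivity and fatal seizures.

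On GRCm38, the assembly that mm10 names, Mir128-1 lies on the plus strand of chromosome 1 (128202361 to 128202430), inside R3hdm1 (128103301 to 128237736). Mir128-2 lies on the minus strand of chromosome 9 (112118636 to 112118711), inside Arpp21 (112065091 to 112235938), which encodes an RNA-binding phosphoprotein of neurons. In the GENCODE annotation each hairpin is on its host's strand and intronic in every host transcript that spans it, 2 transcripts of R3hdm1 and 9 of Arpp21. The values of miR-128-3p cannot be divided between the loci, whereas each 5p arm belongs to 1 of them.

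All 3 names matched a RefSeq entry (GRCm38.p6). The hairpins are shown first, since they place both arms, with the mature arms in capitals (5p first, 3p second).
Mir128-1: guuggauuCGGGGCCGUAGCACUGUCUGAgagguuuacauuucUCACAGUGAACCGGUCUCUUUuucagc
Mir128-2: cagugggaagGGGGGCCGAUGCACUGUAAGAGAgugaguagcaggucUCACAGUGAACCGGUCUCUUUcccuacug

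The mature products follow, with the seed in capitals, beside miR-27a-3p and miR-27b-3p, which hold the letters of the miR-128-3p seed moved by 1 base.
miR-128-3p: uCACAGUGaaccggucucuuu
miR-128-1-5p: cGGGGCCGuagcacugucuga
miR-128-2-5p: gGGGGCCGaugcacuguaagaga
miR-27a-3p: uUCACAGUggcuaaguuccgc
miR-27b-3p: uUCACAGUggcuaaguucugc

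The hairpins share 55 aligned bases, with 14 mismatches and 8 gap positions. The 5p arms are 21 and 23 bases long, and over the first 21 positions, compared without gaps and counted from the 5′ end, 16 are identical. They differ by C1G, U9A, A10U, C18A and U19A (the base of miR-128-1-5p first), all outside the seed, so the arms share the seed GGGGCCG. Among 1679 mature mouse names searched, no other name has that seed, and none but miR-128-3p has CACAGUG at bases 2 to 8. miR-27a-3p and miR-27b-3p hold CACAGUG from base 3 on. Their mean rescaled values were 3539 ± 396 and 55762 ± 3546 in knockout libraries, against 3704 ± 1032 and 61819 ± 2156 in wild-type libraries (SD, n = 4 each), so both were far below miR-128-3p.

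miR-128-3p begins with U and the 5p arms with C and G. In the minimum-energy folds (−29.3 kcal/mol for Mir128-1 and −37.3 kcal/mol for Mir128-2), the first base of miR-128-3p was in a U-A pair in both hairpins. The first base of miR-128-1-5p was unpaired, and that of miR-128-2-5p was in a G-U pair. Of the first 4 bases, 4 were paired in miR-128-3p in both hairpins, 3 in miR-128-1-5p and 4 in miR-128-2-5p. In these folds the 5′ end of miR-128-3p was thus not the less firmly paired one, unlike the tendency given above. Of the 9 most abundant names that had a sequence among the 10 highest, 8 begin with U, and so do 209 of 510 tested names with a sequence (41.0%).

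miR-128-3p was the highest miRNA in each of the 8 libraries. Its deposited values, which the authors call normalized counts, were 4579827, 4247683, 4635771 and 4143353 in knockout replicates 1, 2, 4 and 5. They were 4821581, 4255138, 4172345 and 4697719 in wild-type replicates 1, 2, 3 and 4. The groups overlapped, with the highest value in wild-type replicate 1 and the lowest in knockout replicate 5.

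Summed over all names, the libraries held 16.2 to 21.6 (units of 1000000). Some names had the same mean and spread, such as miR-199a-3p and miR-199b-3p (both 4946.88), so some signal may enter the total more than once. How a product of several loci, such as miR-128-3p, entered the values was not examined. miR-128-3p made up 25.8%, 23.5%, 24.4% and 21.0% of knockout replicates 1, 2, 4 and 5. In wild-type replicates 1, 2, 3 and 4 it made up 22.5%, 19.7%, 25.8% and 27.3%. The knockout range lay inside the wild-type range, and the extremes were both wild type: the library with the largest total (replicate 2) had the lowest share, and the library with the second smallest total (replicate 4) had the highest. Mean shares were 23.7 ± 2.05% in the knockout and 23.8 ± 3.40% in wild type (SD, n = 4 each), a difference of −0.153 ± 1.98 percentage points (SE; two-sided exact permutation p = 0.943, where 0.0286 is the smallest possible).

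**Figure D1:**
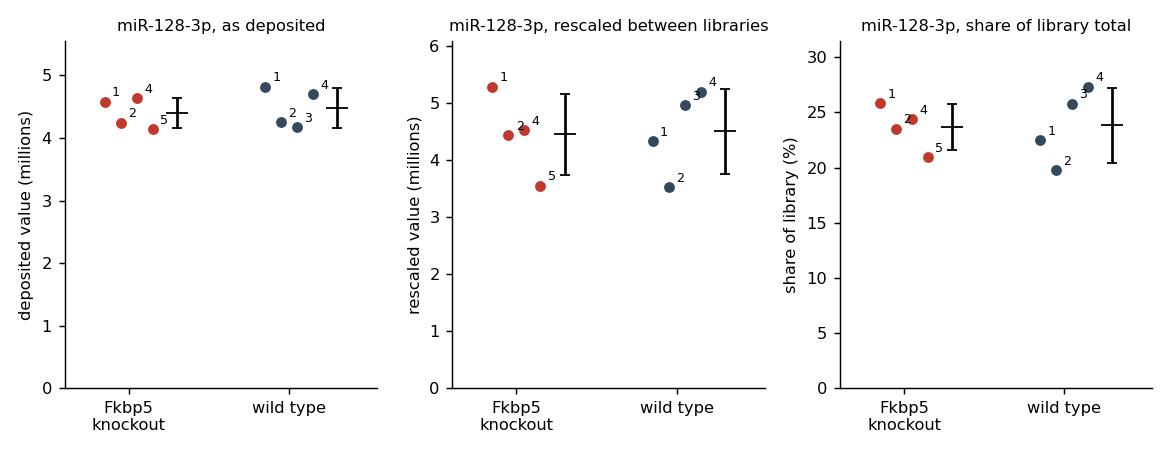
miR-128-3p in each library (points, numbered by replicate) with the mean and SD of each group (n = 4, black), as deposited (left, units of 1000000), rescaled between libraries (middle, same units) and as a percentage of the library total (right); all axes start at 0. The groups overlap in each panel, and the points lie closest together in the values as deposited.

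The distance to the next miRNAs was large. miR-9-5p, a neural miRNA with an array of targets in neurogenesis, came next by mean share. In knockout libraries it held 11.3 ± 0.741% and in wild type 11.4 ± 0.505% (SD, n = 4 each). The ratio of miR-128-3p to miR-9-5p was 2.34, 2.28, 2.09 and 1.75 in knockout replicates 1, 2, 4 and 5. It was 2.01, 1.77, 2.12 and 2.46 in wild-type replicates 1, 2, 3 and 4. miR-128-3p thus exceeded miR-9-5p in all 8 libraries, with overlapping groups, and the mean log2 ratios of 1.07 ± 0.19 in the knockout and 1.05 ± 0.20 in wild type differed by 0.02 ± 0.14 (SE; exact permutation p = 0.943).

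Below miR-9-5p, mean shares over the 8 libraries were 9.97 ± 0.695% for let-7c-5p, 9.02 ± 0.632% for miR-26a-5p and 8.21 ± 0.675% for let-7a-5p (SD). Places changed from library to library, with miR-9-5p at 2 to 3, let-7c-5p at 2 to 4, miR-26a-5p at 3 to 5 and let-7a-5p at 4 to 5. The order of these miRNAs was thus not the same in every library. miR-128-3p never left the first place. The set of 10 was completed by let-7f-5p at 4.58%, miR-9-3p at 3.67%, neuronal miR-124-3p at 3.60%, miR-125b-5p at 1.96% and let-7b-5p at 1.96%. Shares are of the deposited values.

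**Figure D2:**
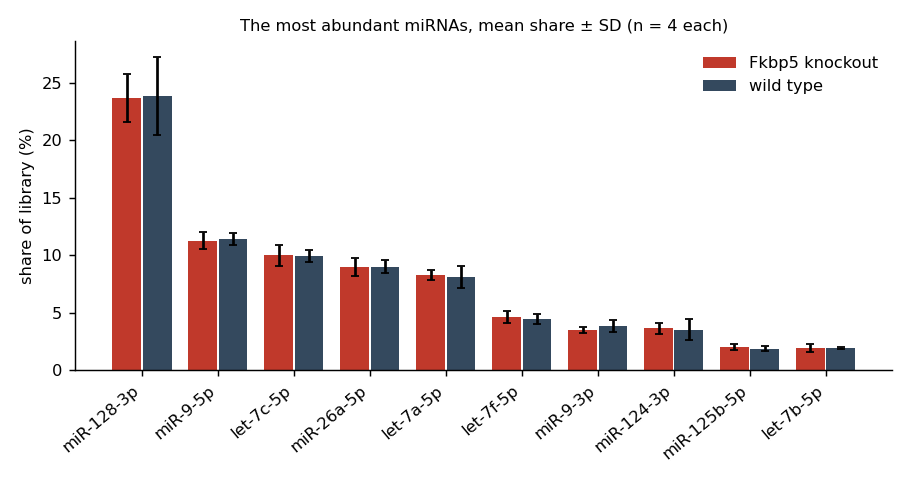
Mean share of the library (%, vertical axis from 0) of the 10 most abundant miRNAs in Fkbp5 knockout (red) and wild-type (dark) libraries; error bars are SD, n = 4 each. miR-128-3p, at 23.7% and 23.8%, stands above miR-9-5p at 11.3% and 11.4%, and the bars of each pair overlap within their SD.

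As deposited, miR-128-3p was the steadiest of the 599 tested miRNAs. Its coefficient of variation over the 8 libraries was 6.02%, against a median of 23.0%, and 0 of the 599 had a smaller one. Both 5p arms, far lower in level, were also among the 5 steadiest names: miR-128-1-5p had 2 names below it, at 7.72%, and miR-128-2-5p had 4, at 8.02%. The others among the 5 were miR-132-3p at 6.13%, a miRNA induced by CREB, and miR-151-5p at 7.77%. The highest miR-128-3p value was 1.16 times the lowest, whereas the highest library total was 1.33 times the lowest and the remainder of the library, all names but miR-128-3p, spanned 1.44-fold. That remainder ran from 13.1 to 15.6 in knockout libraries and from 12.0 to 17.3 in wild-type libraries, in units of 1000000.

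Rescaling each library by the trimmed mean of its log ratios to a reference library gave a different picture. The median coefficient of variation over the 599 fell to 18.2%, but that of miR-128-3p became 15.1% and those of miR-128-1-5p and miR-128-2-5p 14.2% and 19.9%. For miR-128-3p, 220 of the 599 then had a smaller one. Among the 205 names with a mean of at least 1000, the median was 12.6%, so miR-128-3p varied more than the median abundant name. The library divisors behind this ran from 0.840 in wild-type replicate 3 to 1.20 in wild-type replicate 2. How the authors normalized the deposited values is not given in the sources used here, and its part in the steadiness of miR-128 was not tested.

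**Figure D3:**
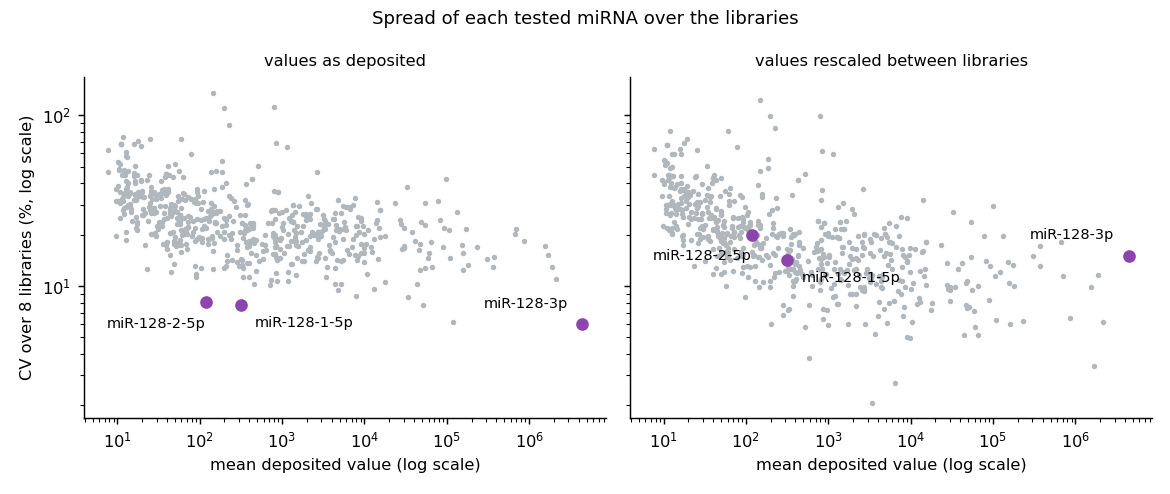
Coefficient of variation over the 8 libraries (%, log axis) against mean deposited value (log axis) for the 599 tested miRNAs (grey), with the 3 miR-128 products in purple, as deposited (left) and rescaled (right). The miR-128 products form part of the lower edge at 6.02%, 7.72% and 8.02% as deposited, and lie inside the cloud at 15.1%, 14.2% and 19.9% once rescaled.

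The 5p arms were present in every library at a small fraction of the 3p level. Deposited values of miR-128-1-5p were 271, 306, 317 and 345 in knockout replicates 1, 2, 4 and 5. In wild-type replicates 1, 2, 3 and 4 they were 293, 328, 338 and 321. The knockout held both the lowest and the highest value, replicates 1 and 5, and enclosed the wild-type range. By level, miR-128-1-5p stood between places 264 and 304 of the 1915 names.

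Deposited values of miR-128-2-5p were 133, 118, 108 and 110 in knockout replicates 1, 2, 4 and 5. In wild-type replicates 1, 2, 3 and 4 they were 110, 125, 130 and 118. Here too the groups overlapped, with knockout replicate 1 highest, and the name stood between places 329 and 372. As shares of the library, miR-128-1-5p averaged 16.6 ± 0.925 per 1000000 in the knockout and 17.1 ± 3.28 per 1000000 in wild type (SD, n = 4 each; exact permutation p = 0.743). miR-128-2-5p averaged 6.32 ± 0.899 and 6.46 ± 1.27 per 1000000 in the same groups (exact permutation p = 0.857).

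The deposited value of miR-128-1-5p, from the R3hdm1 locus, exceeded that of miR-128-2-5p, from the Arpp21 locus, in all 8 libraries. Adapters ligate unequally to different sequences, so this compares values, not molecules, and does not measure the output of the loci. The ratio of miR-128-1-5p to miR-128-2-5p was 2.04, 2.59, 2.94 and 3.14 in knockout replicates 1, 2, 4 and 5. It was 2.66, 2.62, 2.60 and 2.72 in wild-type replicates 1, 2, 3 and 4. The wild-type libraries lay close together inside the wider knockout range. Over the 8 libraries the mean log2 ratio was 1.40 ± 0.18 (SD), a 2.64-fold excess of the deposited value, with a two-sided exact sign-flip permutation p of 0.00781, the smallest that 8 libraries allow. By genotype, the mean log2 ratio was 1.40 ± 0.27 in the knockout and 1.40 ± 0.03 in wild type (SD, n = 4 each; exact permutation p = 0.943); the difference in spread was not tested.

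**Figure D4:**
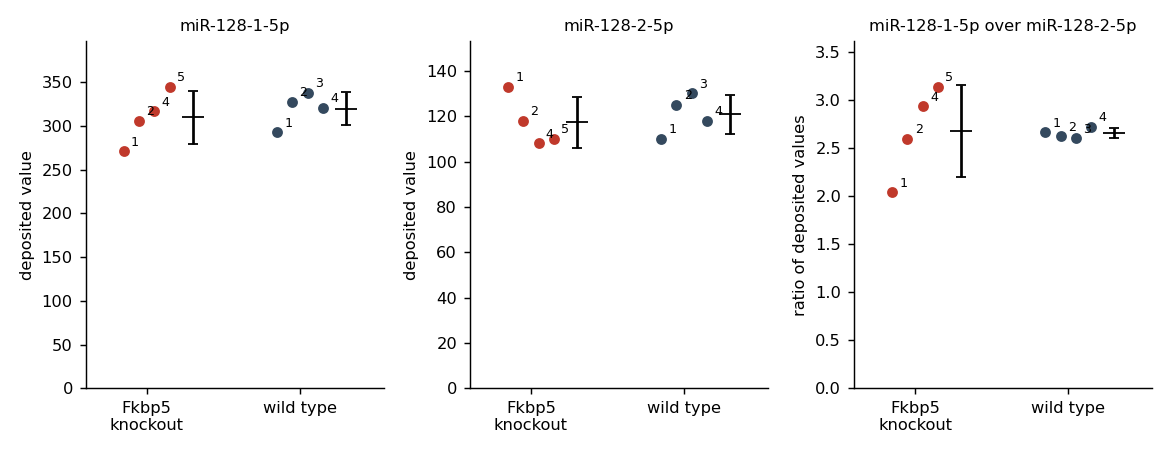
Deposited values of miR-128-1-5p (left) and miR-128-2-5p (middle) and their ratio (right) in each library (points, numbered by replicate), with the mean and SD of each group (n = 4, black); all axes start at 0. The groups overlap throughout, and the ratio spans 2.04 to 3.14 in the knockout and 2.60 to 2.72 in wild type.

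By deposited value the arms were extremely unequal. miR-128-3p held 99.99% of all miR-128 values. For each 1000000 of miR-128-3p, both 5p arms together gave 88.2, 99.8, 91.7 and 109.8 in knockout replicates 1, 2, 4 and 5. They gave 83.6, 106.5, 112.2 and 93.4 in wild-type replicates 1, 2, 3 and 4. The deposited value of miR-128-3p was thus 8915 to 11964 times that of the summed 5p arms, with overlapping groups. The arms differ in sequence, so unequal adapter ligation applies here too, and this is not a ratio of molecules. The mean log2 ratio of the summed 5p arms to miR-128-3p was −13.33 ± 0.14 in the knockout and −13.31 ± 0.19 in wild type (SD, n = 4 each), a difference of −0.02 ± 0.12 (SE; exact permutation p = 0.886). Adjusted over the 6 shares and ratios compared by genotype, the Benjamini-Hochberg value of each exact permutation p was 0.943.

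Other miRNAs made from more than 1 locus have a shared arm and partner arms named by locus, so they can be set beside miR-128. The partner names let-7a-1-3p and let-7c-2-3p had the same mean and spread (both 1545.25). The partner sums of let-7a and let-7c may thus hold the same signal, and these miRNAs may not be separate comparisons. Of the 25 others whose shared arm was the larger, 3 had a lower ratio than miR-128: miR-26a at −13.95 ± 0.27, let-7f at −13.68 ± 0.33 and miR-1a, whose partner arms are listed at 0 in all libraries. Next above it was miR-103 at −13.25 ± 0.57, within the spread of miR-128 at −13.32 ± 0.16 (SD over the 8 libraries). Among neuronal miRNAs, miR-218 stood at −12.70 ± 0.33, miR-129 at −4.43 ± 0.26 and miR-138 at −2.01 ± 0.21, and the median of the 25 was −7.997. With 0.5 added to each value, a low shared arm cannot reach a ratio as low as that of miR-128. The shared arm averaged 20.5 for miR-3074, 106.25 for miR-450a and 373.5 for miR-19b, against 4444180 for miR-128. The order and the median thus partly follow the level of the shared arm. The SD of the miR-128 ratio was also among the smaller ones: 2 of the 25 had a smaller SD, and the median SD of the 25 was 0.33. Partner arms averaged 433.875 for miR-128, but 1.125 for miR-92a (SD 1.32) and 7.75 for miR-103 (SD 0.57), and values near 0 widen the SD of a log ratio. At partner arms of 1557.88 and 1635.5, let-7a and miR-7a both had SDs of 0.39. The 2 with a smaller SD than miR-128, miR-24 at 0.10 and miR-125b at 0.15, had partner arms at 1289.25 and 2681.38. The SDs were not compared at matched partner levels. The neural miRNAs miR-124 and miR-9, named once per arm, had a higher relative value of the partner arm. Their log2 ratios were −9.14 for miR-124 and −1.63 for miR-9, whose 3p arm is itself abundant. Among 62 other hairpins, of either naming, whose larger arm averaged at least 10000, 6 had a lower ratio than miR-128, and the median was −8.12. These orders are descriptions and were not tested.

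**Figure D5:**
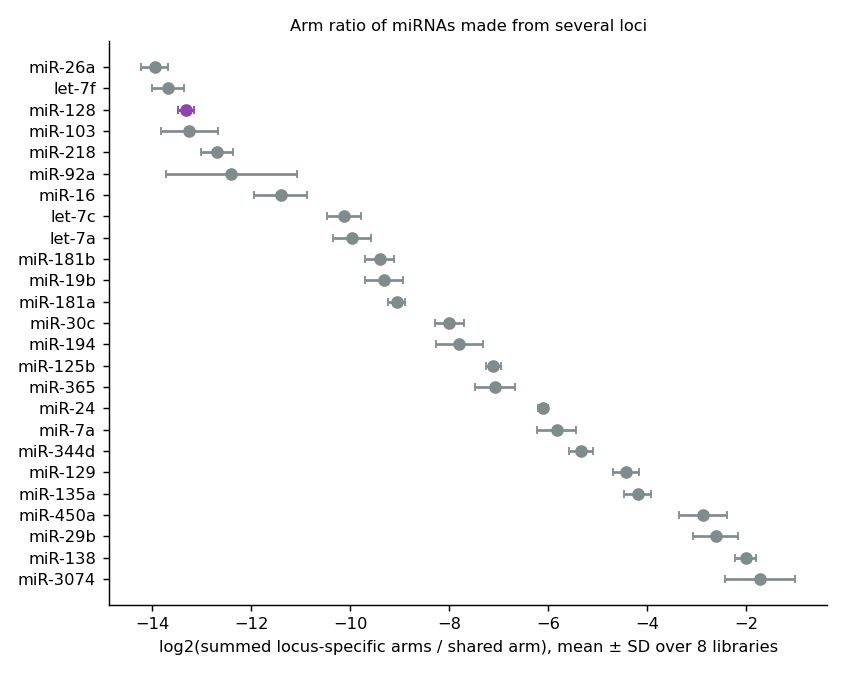
Log2 ratio of the summed arms named by locus to the shared arm, for miRNAs made from several loci, lowest at the top. The horizontal axis gives the mean and SD over the 8 libraries. miR-1a, with partner arms listed at 0, is left out. miR-128 (purple) at −13.32 lies near the low end beside miR-26a, let-7f and miR-103, and miR-138 at −2.01 lies near the high end.

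None of the 3 products differed by genotype beyond the spread between libraries. Rescaled miR-128-3p averaged 4456980 ± 710752 in the knockout and 4510400 ± 747790 in wild type (SD, n = 4 each). The fold from limma's fit on the log2 scale, which is not the ratio of these means, was 0.989, with a 95% interval of 0.799 to 1.22. Rescaled miR-128-1-5p was at 313.3, 320.2, 309.8 and 296.2 in knockout replicates 1, 2, 4 and 5, against 263.4, 272.4, 402.2 and 355.9 in wild-type replicates 1, 2, 3 and 4. The knockout libraries fell within a narrow band inside the wild-type range, and the fitted fold was 0.973 (0.767 to 1.23). Rescaled miR-128-2-5p averaged 119.3 ± 25.9 in the knockout and 122.1 ± 25.9 in wild type (SD, n = 4 each), with a fitted fold of 0.977 (0.719 to 1.33).

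On the log2(rescaled value + 1) scale, where a difference of the low arms is slightly understated, the changes were −0.02 ± 0.14 for miR-128-3p, −0.04 ± 0.16 for miR-128-1-5p and −0.03 ± 0.20 for miR-128-2-5p (SE). limma's Benjamini-Hochberg adjusted p was 0.994 for each. Among all 599 miRNAs tested by limma, 0 passed an adjusted p of 0.05 (0%), and 24 had an unadjusted p under 0.05 (4.01%), none of them a miR-128 product. The genotypes did not overlap in rescaled values for 9 of the 599 (1.5%), and all 3 miR-128 products overlapped. The signs of the 3 differences flipped under upper quartile scaling, to 0.04, 0.01 and 0.02, while the median over all 599 moved likewise, to 0.07 from 0.02. All 3 stayed negative with median-of-ratios scaling, scaling by library total, the values as deposited and scaling without the miR-128 members.

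The miRNAs whose rescaled log2 values followed miR-128-3p most closely over the 8 libraries, among 204 others with a mean of at least 1000, were miR-151-5p (Pearson r = 0.90), miR-30e-3p (0.88), miR-674-3p (0.86), miR-1224-5p (0.86) and miR-1249-3p (0.85). The median r of the 204 was −0.08. For the summed 5p arms they were miR-132-3p (0.90), miR-23a-3p (0.89), miR-181b-5p (0.87), let-7d-3p (0.86) and miR-212-3p (0.85), the CREB-induced miR-132 and miR-212 coming from 1 cluster. All of these points share the library divisor, and rescaled miR-128-3p and the summed 5p arms each had r = 0.92 with its inverse on the log2 scale. In the values as deposited, r with miR-128-3p was 0.13 for miR-151-5p, 0.26 for miR-30e-3p, 0.42 for miR-674-3p, 0.66 for miR-1224-5p and 0.48 for miR-1249-3p. With the summed 5p arms it was 0.40 for miR-132-3p, 0.52 for miR-23a-3p, 0.25 for miR-181b-5p, 0.66 for let-7d-3p and 0.59 for miR-212-3p. All 10 values were positive and lower than after rescaling. These names were picked for their high r after rescaling, so a lower r in other values follows in part from that choice. Among the members themselves, rescaled miR-128-3p had r = 0.64 with miR-128-1-5p and 0.82 with miR-128-2-5p, and the 5p arms had r = 0.77 with each other. As deposited, the same 3 pairs had r = −0.61, −0.28 and −0.24, so the positive values appeared only after rescaling by the shared divisor. At the other end, the lowest rescaled r with miR-128-3p was −0.83, for miR-487b-3p. With the summed 5p arms it was −0.97, for miR-7a-5p, a neuron-enriched miRNA.

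Among 17 other neuron-enriched miRNAs, 0 passed limma's adjusted threshold, with 12 at a higher and 5 at a lower mean log2 value in the knockout. Over all 599 the counts were 323 higher and 276 lower. The median log2 difference of the 17 was 0.06, beside 0.02 over all 599. miR-124-3p was at 0.06 ± 0.16, miR-137-3p, a regulator of neuronal maturation, at 0.18 ± 0.13 and miR-218-5p, enriched in motor neurons, at −0.19 ± 0.12 (SE). The largest difference of the 17 was that of miR-149-5p, at 0.30 ± 0.13 (SE; limma unadjusted p = 0.0425, adjusted 0.994). No other of the 17 had an unadjusted limma p under 0.05. Together the 17 held 19.8% to 22.5% of knockout and 20.8% to 21.9% of wild-type libraries, ranges that overlap the shares of miR-128-3p alone. In tissue that mixes cell types, fewer neurons and less of a miRNA per neuron cannot be told apart.

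The labelled tissue was checked on the same lists. miRNAs of the Hox clusters, typical of hindbrain and spinal cord, summed to 11.4 to 26.0 per 1000000 in the knockout and 20.1 to 31.8 per 1000000 in wild type. The liver pair miR-122-5p and miR-192-5p summed to 36.5 to 42.0 and 35.7 to 39.9 per 1000000. miRNAs of epithelium and olfactory tissue varied most, at 14.6 to 121.7 per 1000000 in the knockout and 26.5 to 208.5 per 1000000 in wild type. Oligodendrocyte miRNAs held 1144 to 1289 per 1000000 in the knockout and 1120 to 1562 per 1000000 in wild type, microglial and leukocyte ones 626 to 812 and 653 to 739, and those of endothelium and smooth muscle 2983 to 4607 and 3777 to 5674. Red blood cell (205 to 263 and 153 to 281), striated muscle (722 to 875 and 723 to 996) and choroid plexus miRNAs (363 to 455 and 406 to 578) had the remaining totals, also per 1000000. No member of these lists passed limma's adjusted threshold. All tested members had a lower mean log2 value in the knockout for oligodendrocytes (4, median −0.18), endothelium and smooth muscle (4, −0.10), epithelium and olfactory tissue (4, −1.17), the Hox clusters (2, −0.83) and choroid plexus (2, −0.17). Of the rest, 2 of 5 microglial and leukocyte, 1 of 3 red blood cell, 1 of 3 striated muscle and 1 of 2 liver miRNAs were at a higher value. Over all 599 miRNAs, 276 were lower and 323 higher in the knockout, with a median of 0.02. Some lists hold both arms of 1 hairpin, such as miR-338 or miR-126a, so their members are not independent. Ranges of the list totals overlapped between the genotypes for every list, and 0 list members were at 0 in all libraries. Of single members, rescaled miR-219a-5p did not overlap and was lower in the knockout (log2 difference −0.60). This miRNA, miR-10a-5p, miR-10b-5p and miR-143-3p, all lower in the knockout, had an unadjusted limma p under 0.05. No other member of these lists did.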

How the data were processed

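Small RNA libraries of mouse prefrontal cortex, 4 Fkbp5 knockout and 4 wild type, were grouped by their titles. The deposited values are whole numbers that the authors, per the file headers, call normalized counts; no step is named there, and they were treated as a score rather than as counts of reads. The authors deposited these score values, per the file headers, after normalization. Per the submitters' processing notes, cutadapt 1.11, Bowtie 1.1.2, HTSeq 0.6.1p1 and edgeR were used with mm10; the normalization is not given in the sources used here, so no counting error is given, and totals of 16.2 to 21.6 (units of 1000000) are the only sign of depth.

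Values were rescaled by a trimmed mean of log ratios (30% of ratios and 5% of levels trimmed at each end). Tested miRNAs had a total of 15 and reached 10 (at the median library size) in 4 or more libraries (599 names, 99.99% of values); log2(rescaled value + 1) was fitted with limma 3.58.1 (R 4.3.3), with a mean-variance trend. The procedure was tested on simulated data. Shares and log2 ratios (0.5 added to each value) were compared by exact permutation (scipy 1.17.1; 70 arrangements). Hairpins were folded with RNAfold 2.7.2 and aligned with Biopython 1.88. Positions and hosts come from GENCODE M21, sequences from RefSeq.

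The members and lists were chosen with earlier results of these data known. miRNAs were named by a written rule: the members, the 10 most abundant, the 5 most correlated with a mean of at least 1000, and multi-locus miRNAs. The steadiest names, the lowest r, miR-137-3p, single list members with a low unadjusted p and the list totals were added after their values were seen.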

Additional observations from a re-analysis of the deposited data

How the results depend on the processing

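Of 136 alternative values for 10 results, 97 kept their direction and side of 0.05, 39 changed sign and 0 crossed the threshold; the differences by genotype are so near 0 that their signs carry no information. The count past limma's adjusted threshold was 0 under every alternative, with 9 (values as deposited) to 50 (no filter) at an unadjusted p under 0.05, and 24 in the main setting. Upper quartile scaling gave log2 differences of 0.037, 0.013 and 0.019 for miR-128-3p, miR-128-1-5p and miR-128-2-5p, a shift shared by all names, whose median moved to 0.067 from 0.016. The labels do not say that replicate numbers pair libraries: correlations of same-numbered libraries were 0.06, −0.04 and 0.13, and knockout replicate 4 alone matched its own number best. A replicate block on numbers 1, 2 and 4 gave 0.146, 0.101 and 0.198, as did the same 6 libraries without a block (which lack wild-type replicate 3 and knockout replicate 5). Paired in this way, added after the data were seen, the differences in share were 1.41 percentage points for miR-128-3p and 0.459 and 0.644 per 1000000 for the 5p arms, where 3 pairs cannot go below an exact p of 0.25.

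With 1 library left out, the log2 differences ran from −0.13 to 0.071 for miR-128-3p, −0.12 to 0.082 for miR-128-1-5p and −0.16 to 0.10 for miR-128-2-5p. The differences in share ran from −1.52 to 1.01 percentage points, and from −1.67 to 0.744 and −0.578 to 0.392 per 1000000. The log2 ratio differences ran from −0.10 to 0.045 (5p arms to 3p), −0.088 to 0.12 (miR-128-1-5p to miR-128-2-5p) and −0.060 to 0.11 (miR-128-3p to miR-9-5p). For miR-128-3p the sign of the level and of the share turned without wild-type replicate 3, wild-type replicate 4 or knockout replicate 5. The excess of miR-128-1-5p over miR-128-2-5p stayed between 1.37 and 1.45 (exact permutation p = 0.0156, the smallest that 7 libraries allow). Exact tests of 3 against 4 libraries cannot go below 0.0571.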

Other observations

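In 18 groups of 4 libraries examined for levels, shares and ratios of the members, 0 held a library far from the other 3 by Dixon's criterion, where chance gives about 1 in 20.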
